A study of Mus musculus with 4 samples.

Results

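The regions described here are 1216 stretches of 4 kb on the mouse autosomes that hold duplicated sequence. They were chosen from reads that the aligner placed at exactly 2 places in the genome. The autosomes were cut into 615613 tiles of 4 kb, the reads with 2 places were reduced to 1 per position and strand, and positions were shifted by 60 bp in the direction of the read. A tile was a member when the control library of whole-cell extract (WCE) held at least 10 such positions in it. The 1216 members make up 0.198% of all tiles and span 4.864 Mb, and 95058 tiles held at least 1 such WCE position. The control counts chose the members, so a ratio of a mark to WCE among the same reads is a description here and carries no test.

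The data are chromatin immunoprecipitation followed by sequencing (ChIP-seq) from MDER 10T cells. These are mouse fibroblasts with a MyoD1 that estrogen can induce, as the series title says. The groups are H3K4me3 (Abcam antibody AB8580), H3K27me3 (AB6002), H3K9me3 (AB8898) and WCE without antibody, each with 1 library. The growth medium of all cells was DMEM/F12 with 10% FCS and no phenol red, and no estrogen treatment, clone number or passage is named. Sonication gave fragments of 500 bp on average, 18 PCR cycles followed adapter ligation, and gel pieces of 150 to 350 bp (inserts of 50 to 200 nt) were sequenced. With 1 library a group, every test compares libraries and not conditions.

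A segmental duplication is a stretch of genome that is present again elsewhere, in the same or the opposite orientation, on the same or another chromosome. Reads from copies that are still identical cannot be assigned to 1 copy, so most ChIP-seq counts leave them out. Nuclear genomes also carry pieces of mitochondrial DNA, and reads from mitochondria, which lack histones, can match such a piece as well. Active promoters usually carry H3K4me3. Polycomb complexes deposit H3K27me3 at silent genes, and H3K9me3 marks heterochromatin, including the repeats near centromeres.

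Reads with 2 places were a small share of each library. They numbered 87716 for H3K4me3, 100303 for H3K27me3, 86029 for H3K9me3 and 102911 for WCE, and each is listed at both places. After repeated positions were removed, the autosomes held 153865 listed places for H3K4me3, 176807 for H3K27me3, 146086 for H3K9me3 and 175201 for WCE. For every 100 collapsed autosomal reads with 1 place, there were 4.98 such places in H3K4me3, 6.03 in H3K27me3, 6.95 in H3K9me3 and 5.88 in WCE. A ratio below divides a mark's count by the WCE count once both are scaled by their autosomal totals of reads with 2 places, unless the totals of reads with 1 place are named. The second scaling moves every log2 ratio to WCE by -0.24 for H3K4me3, 0.03 for H3K27me3 and 0.24 for H3K9me3. Intervals are exact (Clopper-Pearson) 95% intervals. They cover counting error only, since PCR copies without molecular identifiers cannot be told from independent molecules, and they are too narrow where both copies of a pair are summed, since each read is then counted at both. Among listed reads in members, 18.4% in H3K4me3, 14.8% in H3K27me3, 27.8% in H3K9me3 and 21.7% in WCE repeated a position already taken.

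Member tiles held 29192 H3K4me3 positions, 24745 H3K27me3 positions, 18998 H3K9me3 positions and 26335 WCE positions. These sums were 19.0%, 14.0% and 13.0% of the autosomal places in the H3K4me3, H3K27me3 and H3K9me3 libraries, and 15.0% in WCE. The median member held 9 positions for H3K4me3 (range 0 to 453), 13 for H3K27me3 (0 to 469), 9 for H3K9me3 (0 to 394) and 13 for WCE (10 to 699). At the edge of the choice, the 220 tiles with exactly 10 WCE positions had medians of 5, 8 and 6 positions for H3K4me3, H3K27me3 and H3K9me3. The 320 tiles with exactly 9 WCE positions, which are not members, had medians of 4, 7 and 6.

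Reads with 1 place were sparse in most members. Over the 4 libraries a member held a median of 6 such reads, against 12 over all tiles. No library had any in 231 members (19.0%), and 755 members (62.1%) had under 10 over the 4 libraries. A count restricted to reads with 1 place therefore rests on few reads in most of these tiles. A few members were the reverse, with up to 1145 H3K4me3, 2699 H3K27me3, 2189 H3K9me3 and 2021 WCE reads with 1 place in a single tile.

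The second place of the reads was found for most members. The files list both places of a read in separate chromosome blocks without linking them, so runs of 3 neighbouring positions with the same spacing were matched within a library. A member was assigned when at least 50% of its positions had a counterpart at 1 consistent place, and the median share matched was 89.9%. By this measure 481 members (39.6%) had their second copy on the same chromosome in direct orientation, and 435 (35.8%) on the same chromosome in inverted orientation. Another chromosome held the second copy for 124 members (10.2%), and the mitochondrial genome for 13 (1.07%). The remaining 163 members (13.4%) had no single second place and are called unresolved. Of the 1035 members whose second copy lay on an autosome, 917 (88.6%) had it in or next to another member, so most copies are present here as both sides of a pair and are not independent of each other.

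Direct copies lay close together. Their median distance was 71.1 kb, with the middle 50% between 31.5 and 200.0 kb, and 95.2% of them lay within 1 Mb. Inverted copies were farther apart, with a median of 316 kb, the middle 50% between 74.7 and 1040 kb, and 71.7% within 1 Mb.

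Members were unevenly spread over the chromosomes. Chromosome 17 held 298 of them (24.5%) in 3.87% of the tiles, and chromosome 13 came next with 96 members (7.89%) in 4.90% of the tiles. Chromosome 16 was the sparsest, with 12 members (0.987%) in 3.99% of the tiles. The members fell into 359 regions of 1 Mb. The fullest were chromosome 17 from 6000001 to 7000000 with 86 members and from 7000001 to 8000000 with 47, and chromosome 15 from 77000001 to 78000000 with 32.

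**Figure D1:**
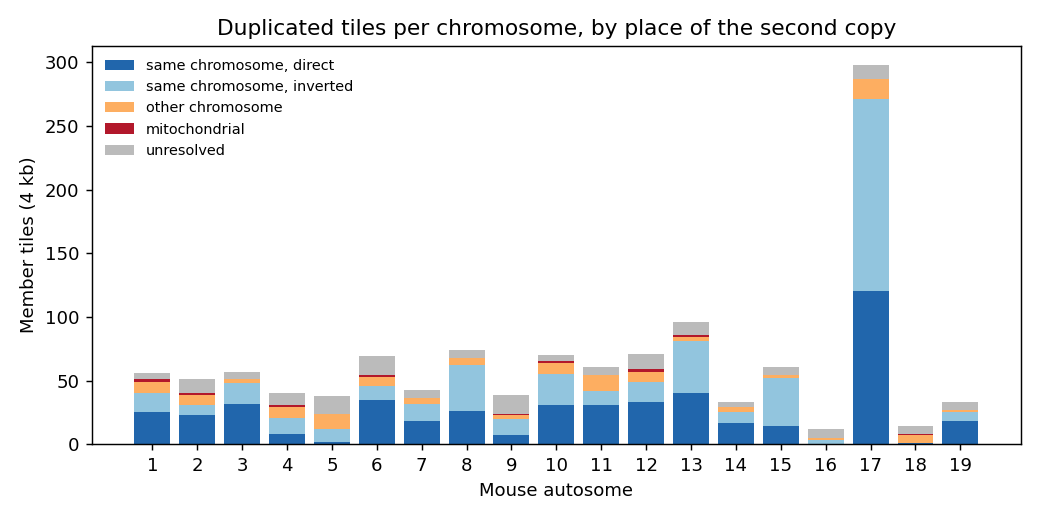
Member tiles of 4 kb per mouse autosome (x axis), with the bars stacked by where the second copy of the sequence lies. Chromosome 17 stands above all others with 298 tiles, of which 120 have a direct and 151 an inverted copy on the same chromosome.

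Joining members at most 20 kb apart gave 549 clusters, of which 362 (65.9%) were a single tile. The 49 clusters of at least 5 tiles held 519 members (42.7%). The largest were the arms of 1 inverted duplication on chromosome 17. The first arm, from 6752001 to 6984000 (mm8, counted from 1, as are all positions here), held 51 members, every one with its inverted copy between 7771702 and 8004511. The other arm, from 7780001 to 8004000, held 46 members whose copies all lay back in the first arm. No tile of the pair can be assigned to 1 arm from these reads.

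The first arm held 1115 H3K4me3, 1175 H3K27me3, 659 H3K9me3 and 824 WCE positions. Its ratios were 1.54 (1.41 to 1.69) for H3K4me3, 1.41 (1.29 to 1.55) for H3K27me3, with 0.959 (0.864 to 1.06) for H3K9me3. The excess of H3K4me3 over WCE came from few tiles, since the median tile ratio was 0.783 and the highest 10.4. H3K27me3 was spread more evenly, with a median tile ratio of 1.29.

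Summed over all members, the ratio to WCE was 1.26 (1.24 to 1.28) for H3K4me3, 0.931 (0.915 to 0.947) for H3K27me3, with 0.865 (0.849 to 0.881) for H3K9me3. In tiles that are not members the ratios were 0.954, 1.01 and 1.02. Scaled by the totals of reads with 1 place, the members' ratios were 1.07 (1.05 to 1.09), 0.954 (0.937 to 0.970) and 1.02 (1.003 to 1.04), so the H3K9me3 ratio lay on the other side of 1. Reads with 1 place in the same members gave 0.915 (0.891 to 0.941) for H3K4me3, 1.003 (0.976 to 1.03) for H3K27me3, with 1.33 (1.29 to 1.36) for H3K9me3, from 9966, 10381 and 9829 mark reads and 10503 WCE reads. By those sums H3K4me3 was below 1 and H3K9me3 above it, and the order of the 3 marks was turned round. A single tile described further on held 1145 of the H3K4me3, 2699 of the H3K27me3, 2189 of the H3K9me3 and 2021 of the WCE reads. The sums lean heavily on it and were not computed without it, so they do not describe the typical member. Among chromosome 17 members alone, leaving it out moved the H3K4me3 ratio from 0.818 to 1.12 (1.05 to 1.20). H3K27me3 went from 1.27 to 1.18 and H3K9me3 from 1.34 to 1.13 there. The adjoining tiles on either side were dense too, with 264 and 280 H3K4me3 and 539 and 568 WCE reads. The side of 1 and the order of the marks in the sums are therefore not read as traits of members. In reads with 2 places the typical member was below all these sums for H3K4me3, with a median tile ratio of 0.670. Of the members, 10% were above 2.83. H3K27me3 had a median of 0.892, and its top 10% began at 1.98. For H3K9me3 these values were 0.800 and 1.45.

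Choosing tiles on 1 strand and measuring the other gave higher ratios. This does not separate choice and measure fully. A read from an inverted copy is listed at its second place on the opposite strand, so reads that chose a tile can be measured in its copy. That concerns the 435 members with an inverted copy on the same chromosome in particular. Taking the 1706 tiles with at least 5 WCE positions on the forward strand and measuring only the reverse strand, the ratio was 1.40 (1.37 to 1.43) for H3K4me3, 1.04 (1.01 to 1.06) for H3K27me3, with 0.970 (0.946 to 0.996) for H3K9me3. Choosing 1677 tiles on the reverse strand and measuring the forward strand gave 1.34, 1.01 and 0.940. H3K4me3 had the highest ratio of the 3 marks under each choice.

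As a sum, the 13 members matched to mitochondrial DNA lay far below the other kinds of member in all 3 marks. Together they held 52 H3K4me3, 121 H3K27me3 and 65 H3K9me3 positions, against 2449 WCE positions. The ratios were 0.0242 (0.0180 to 0.0318), 0.0490 (0.0404 to 0.0588) and 0.0318 (0.0245 to 0.0407). The member with the most WCE positions of all was 1 of them, on chromosome 1 from 24564001 to 24568000, with 13 H3K4me3, 23 H3K27me3, 18 H3K9me3 and 699 WCE positions. The next tile, from 24568001 to 24572000, had 11, 16, 8 and 440 in the same order. On chromosome 2 the tile from 22440001 to 22444000 had 9 H3K4me3, 31 H3K27me3, 14 H3K9me3 and 549 WCE positions. Places listed on the mitochondrial genome by reads with 2 places, repeats kept, numbered 56 in H3K4me3, 126 in H3K27me3, 72 in H3K9me3 and 3263 in WCE. Each of these reads is listed at 2 places, so they overlap the reads counted in the tiles and are no separate measure. Reads whose only place was the mitochondrial genome, repeats kept, numbered 55 in H3K4me3, 139 in H3K27me3, 79 in H3K9me3 and 3217 in WCE.

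Within the 13 tiles, such a gap was narrower or not seen in reads with 1 place. These reads were counted over whole tiles, so they need not lie in the piece that matches mitochondrial DNA. The 13 tiles held 15 H3K4me3, 47 H3K27me3, 29 H3K9me3 and 50 WCE reads with 1 place. The H3K27me3 ratio of 0.954 (0.627 to 1.45) and the H3K9me3 ratio of 0.822 (0.501 to 1.32) were not distinguishable from 1 at this depth, while the H3K4me3 ratio of 0.289 (0.151 to 0.524) was below it. Without the 13 tiles, the ratios of the other 1203 members were 1.39 for H3K4me3, 1.02 for H3K27me3 and 0.951 for H3K9me3. These 13 tiles thus moved the H3K27me3 sum across 1.

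**Figure D2:**
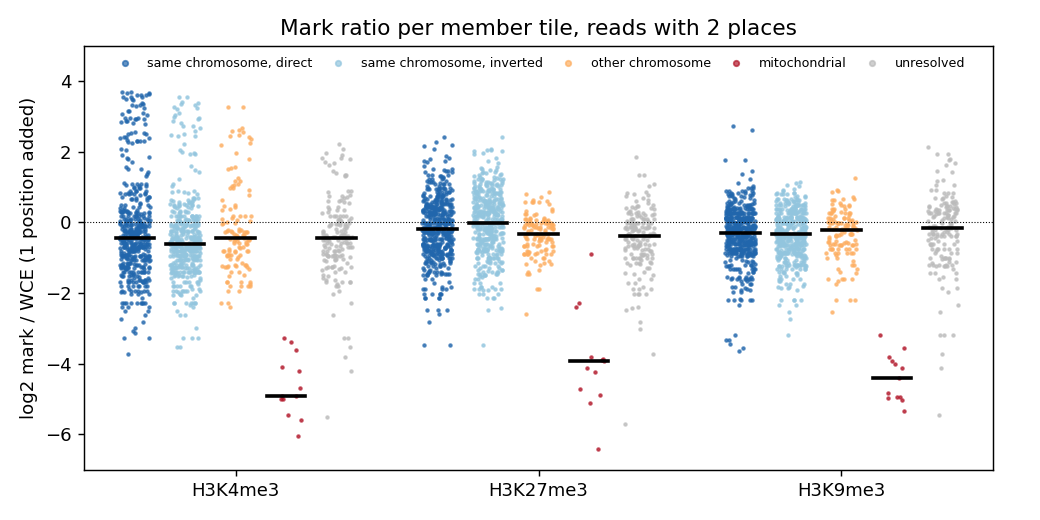
The log2 ratio of each mark to WCE (y axis, 1 position added to both counts) for each of the 1216 members, grouped by mark and coloured by where the second copy lies; each point is 1 tile and each black line a median. The medians of the mitochondrial tiles lie below those of the other groups in all 3 marks, and the points above 3 are almost all H3K4me3 in tiles with a copy on the same chromosome.

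The kinds of duplication differed in their summed marks. Direct copies had the highest summed H3K4me3 ratio, 1.90 (1.85 to 1.96), with 1.08 (1.04 to 1.11) for H3K27me3, with 0.900 (0.870 to 0.932) for H3K9me3. The typical direct copy did not stand out, since the H3K4me3 sum rests on few tiles, with 10% above 5.09. Median H3K4me3 tile ratios were 0.701 for direct copies, 0.613 for inverted ones, 0.736 for those on another chromosome and 0.711 for unresolved members. Inverted copies had ratios of 1.32 (1.28 to 1.36) for H3K4me3, 1.20 (1.17 to 1.24) for H3K27me3, with 0.861 (0.831 to 0.892) for H3K9me3. Copies on another chromosome had 1.21 (1.16 to 1.26), 0.905 (0.866 to 0.946) and 1.01 (0.970 to 1.06). In unresolved members H3K9me3 had the highest ratio, with 0.827 (0.791 to 0.865) for H3K4me3, 0.754 (0.722 to 0.788) for H3K27me3, with 1.12 (1.07 to 1.16) for H3K9me3.

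A second measure came from reads with 1 place, which had no part in the choice. Direct copies held 1844 H3K4me3 and 1120 WCE reads with 1 place, a ratio of 1.59 (1.47 to 1.71). Inverted copies held 1381 H3K4me3 and 925 WCE reads, a ratio of 1.44 (1.32 to 1.57). Unresolved members held 3264 H3K4me3, 3514 H3K27me3, 4406 H3K9me3 and 4354 WCE reads. Their ratios were 0.723 (0.691 to 0.757) for H3K4me3, 0.819 (0.783 to 0.857) for H3K27me3, with 1.43 (1.37 to 1.496) for H3K9me3. Among the 63 unresolved members with at least 10 WCE reads with 1 place, 52 had an H3K9me3 ratio above 1, and the median was 1.42. Leaving out the 5 densest unresolved tiles, the H3K9me3 ratio was 1.54 (1.46 to 1.62). Members with a copy on another chromosome depended on few tiles. Their ratios for reads with 1 place were 0.824 for H3K4me3, 1.16 for H3K27me3 and 1.38 for H3K9me3, and 1.69, 0.929 and 1.17 without the 5 densest.

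Some members lay near chromosome starts. Mouse autosomes have their centromere at the end where numbering begins, and 68 members on 14 chromosomes lay within 1 Mb of the first listed position. Of these, 25 were unresolved. Their reads with 1 place gave ratios of 0.693 (0.651 to 0.738) for H3K4me3, 0.776 (0.729 to 0.825) for H3K27me3, with 1.49 (1.40 to 1.57) for H3K9me3. Reads with 2 places gave 1.10, 0.751 and 1.11, so the summed H3K4me3 ratio lay on different sides of 1 in the 2 kinds of read. The median tile was below 1 in reads with 2 places too, with an H3K4me3 ratio of 0.667, and 14 of the 68 tiles were at or above 1.

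Each tile was also tested across the autosomes with a two-sided exact binomial test on the counts of 2 libraries. A tile was called when its p, adjusted by Benjamini-Hochberg over all tiles that held a position of either library, was under 0.05 and its scaled fold at least 2. Power depends on depth, and members are deep by choice, so a share of members called cannot be set against the share of all tiles as an effect. For H3K4me3 against WCE, 124 members were called higher (10.2% of members), where 0.506% of all 135704 tested tiles were called. All 29 tiles called lower were members, where 0.0214% of the tested tiles were called. For H3K27me3, 20 members were called higher (0.023% of all tested tiles) and 12 lower (0.00788%). For H3K9me3, 7 members were called higher (0.00479%) and 11 lower (0.00753%). Since the WCE counts chose the members, nothing is read from these counts. Among the lower calls, 11 of 29 for H3K4me3, 10 of 12 for H3K27me3 and 10 of 11 for H3K9me3 were mitochondrial tiles. Scaling by the totals of reads with 1 place changed the H3K9me3 calls to 11 higher and 11 lower.

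Tests of 1 mark against another do not use the WCE counts. H3K4me3 was called above H3K27me3 in 133 members, where 0.564% of 132890 tested tiles were called, and below it in 77 members, where 0.0813% were called. Those 77 are 71.3% of the 108 tiles called in that direction over all autosomes, and 43 of them lay on chromosome 17. This share is not read as an effect, since members are deep by choice and both sides of a pair can be among the 77. H3K4me3 was above H3K9me3 in 124 members (0.468% of tested tiles) and below it in 11 (0.0127%). H3K27me3 was above H3K9me3 in 16 members (0.0119%) and below it in 11 (0.00768%). Of the 11 members with H3K4me3 below H3K9me3, 8 were unresolved, as were 8 of the 11 with H3K27me3 below H3K9me3.

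These splits depended on the scaling. With the totals of reads with 1 place, H3K4me3 against H3K27me3 had 121 higher and 123 lower members, H3K4me3 against H3K9me3 had 100 higher and 76 lower, and H3K27me3 against H3K9me3 had 8 higher and 17 lower. That scaling shifts the log2 ratio of H3K4me3 to H3K27me3 by -0.27 and of H3K4me3 to H3K9me3 by -0.48 in every tile.

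The tiles called for H3K4me3 are described next, and the height of their ratios was set by the call, which asks for a fold of at least 2. The 124 members called higher than WCE held 15982 H3K4me3 and 2888 WCE positions, and their tile ratios ran from 2.04 to 14.2 with a median of 6.28. Direct copies made up 64 of them, inverted copies 33, copies on another chromosome 18 and unresolved tiles 9. They lay in 90 clusters, and 35 of the tiles were on chromosome 17.

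The clearest cluster with H3K4me3 was a tandem pair on chromosome 17 from 14696001 to 14760000. It held 16 members, and all had their direct copy inside the same cluster, displaced by 31367 bp in the most frequent match. The cluster held 1983 H3K4me3, 546 H3K27me3, 341 H3K9me3 and 627 WCE positions. Its ratios were 3.60 (3.29 to 3.95) for H3K4me3, 0.863 (0.768 to 0.969) for H3K27me3, with 0.652 (0.570 to 0.745) for H3K9me3. H3K4me3 was concentrated in few of the 16 tiles. The tile from 14696001 had 393 H3K4me3 and 37 WCE positions, and its counterpart from 14728001 had 453 and 45. The tile from 14712001 had 421 H3K4me3 and 61 WCE positions, and its counterpart from 14744001 had 427 and 65. The tile from 14756001 had 82 H3K4me3 and 45 WCE positions, and the other 11 tiles held 7 to 51 H3K4me3 positions.

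Over the same cluster the reads with 1 place numbered 82 for H3K4me3, 12 for H3K27me3, 7 for H3K9me3 and 10 for WCE. Of the 82 H3K4me3 reads, 42 lay in the tile from 14696001 and 35 in the tile from 14728001. The tiles from 14712001 and 14744001 had 1 and 0, beside their 421 and 427 H3K4me3 positions with 2 places. H3K4me3 was thus seen by reads with 1 place at 1 matched pair of tiles and hardly at the other.

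**Figure D3:**
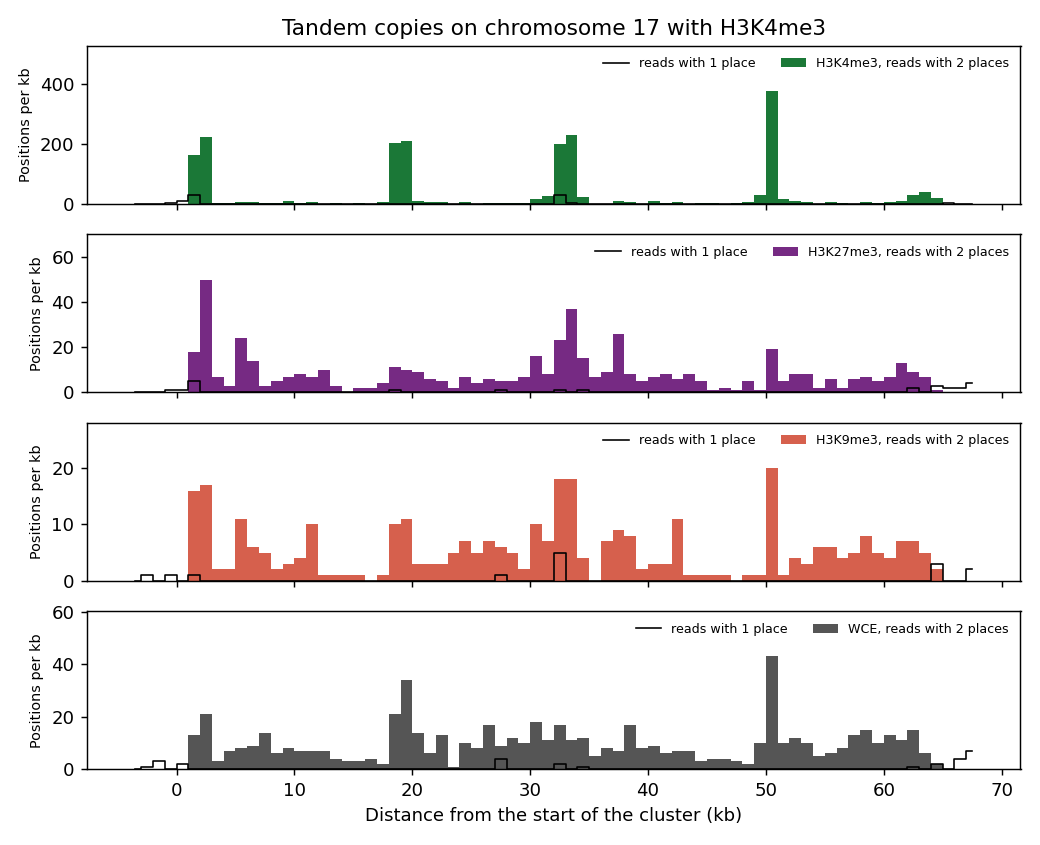
Positions per kb (y axis, a scale of its own for each library) along the tandem pair on chromosome 17 (x axis, kb from the start of the cluster), with filled bars for reads with 2 places and a black line for reads with 1 place, in H3K4me3, H3K27me3, H3K9me3 and WCE from top to bottom. H3K4me3 stands in 4 narrow peaks that repeat after about 31 kb, and reads with 1 place are seen mainly at the peaks near 1 and 32 kb.

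The 5 called tiles with the highest H3K4me3 ratio were all direct copies. On chromosome 17 the tile from 21352001 to 21356000 had 125 H3K4me3, 6 H3K27me3, 7 H3K9me3 and 10 WCE positions, a ratio of 14.2 (7.49 to 30.4). A tile of its direct copy 29352 bp away, from 21384001 to 21388000, had 133, 8, 10 and 11 positions in the same order, a ratio of 13.8 (7.45 to 28.2). The tile on chromosome 13 from 12704001 to 12708000 had 262 H3K4me3, 35 H3K27me3, 21 H3K9me3 and 22 WCE positions, a ratio of 13.6 (8.77 to 22.0). In each of these tiles H3K4me3 stood alone, with the other 2 marks within the counting error of WCE.

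On chromosome 12 the tile from 56040001 to 56044000 had 224 H3K4me3, 19 H3K27me3, 18 H3K9me3 and 19 WCE positions, a ratio of 13.4 (8.40 to 22.7), and its direct copy lay 75064 bp away. It held no read with 1 place in any library. The tile on chromosome 1 from 180024001 to 180028000 had 151 H3K4me3, 7 H3K27me3, 7 H3K9me3 and 13 WCE positions, a ratio of 13.2 (7.50 to 25.4). Its reads with 1 place were 15 for H3K4me3 and 5 for WCE, which did not pass the exact binomial test (adjusted p = 0.374).

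The chromosome 13 tile belongs to a pair of clusters on the same chromosome. The cluster from 12672001 to 12860000 held 24 members with 794 H3K4me3, 288 H3K27me3, 230 H3K9me3 and 354 WCE positions, and an H3K4me3 ratio of 2.55 (2.25 to 2.90). Of these members, 15 had a direct copy between 13154683 and 13238348. The matching cluster from 13152001 to 13244000 held 15 members with 735 H3K4me3, 206 H3K27me3, 159 H3K9me3 and 238 WCE positions, and an H3K4me3 ratio of 3.52 (3.03 to 4.09). In each cluster 2 tiles were called, and the median tile ratio was 0.759 in the larger cluster and 0.976 in the smaller.

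Other direct pairs with H3K4me3 lay on chromosomes 2 and 3. The cluster on chromosome 3 from 88856001 to 88924000 held 350 H3K4me3 and 86 WCE positions, a ratio of 4.63 (3.65 to 5.94). On the same chromosome the cluster from 40932001 to 40992000 held 419 H3K4me3 and 106 WCE positions, a ratio of 4.50 (3.63 to 5.62). The chromosome 2 cluster from 121160001 to 121224000 held 238 H3K4me3 and 71 WCE positions, a ratio of 3.82 (2.92 to 5.05). In all 3, H3K27me3 and H3K9me3 had ratios of 0.997 or less.

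The largest contrasts between H3K4me3 and the other marks were in single tiles and pairs of tiles. On chromosome 14 the tile from 118060001 to 118064000 had 69 H3K4me3 positions and 1 H3K27me3 position, with 5 for H3K9me3 and 10 for WCE (exact binomial test, adjusted p = 8.11e-19 for H3K4me3 against H3K27me3). The direct pair on chromosome 13 from 67948001 and from 67980001 had 73 and 72 H3K4me3 positions, and 2 H3K27me3 positions in each tile. Against H3K9me3, the inverted pair on chromosome 13 from 17776001 and from 17952001 had 66 and 65 H3K4me3 positions and 1 H3K9me3 position in each tile. On chromosome 17 the tile from 46872001 to 46876000 had 92 H3K4me3, 19 H3K27me3, 2 H3K9me3 and 10 WCE positions, and its copy lay on chromosome 5.

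Fewer members were called for H3K27me3, and here too the call set the height of the ratios. The 20 members called above WCE held 1313 H3K27me3 and 322 WCE positions, with tile ratios from 2.48 to 5.75 and a median of 4.25. All had their copy on the same chromosome, 9 in direct and 11 in inverted orientation, and 14 of the 20 lay on chromosome 17. Higher calls numbered 9 with 1 tile of each pair and 6 without chromosome 17, against 12 lower calls in each case. Members on chromosome 17 had an H3K27me3 ratio of 1.31 (1.27 to 1.355), against 0.802 (0.785 to 0.819) in members on the other autosomes. All 13 mitochondrial tiles lay on those other autosomes, and without them the ratio there was 0.909 (0.889 to 0.929). Reads with 1 place gave 1.27 (1.22 to 1.33) on chromosome 17 and 0.849 (0.820 to 0.880) elsewhere. A single tile described further on holds 2699 of the 4794 H3K27me3 reads behind the chromosome 17 value, which was 1.18 (1.11 to 1.26) without it.

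One cluster on chromosome 17 was a tandem pair from 55716001 to 55788000, displaced by 40420 bp in the most frequent match. It held 266 H3K4me3, 579 H3K27me3, 218 H3K9me3 and 231 WCE positions in 15 members. The ratios were 1.31 (1.10 to 1.57) for H3K4me3, 2.48 (2.13 to 2.91) for H3K27me3, with 1.13 (0.936 to 1.37) for H3K9me3. Its tile from 55772001 had 24 H3K4me3, 77 H3K27me3, 28 H3K9me3 and 15 WCE positions, and the matching tile from 55732001 had 25, 76, 27 and 16. The tile from 55780001 had 11 H3K4me3, 73 H3K27me3, 13 H3K9me3 and 15 WCE positions. H3K27me3 was the highest of the 4 libraries in each of these tiles, and 4 tiles of the cluster were called. Reads with 1 place numbered 1 for H3K4me3, 1 for H3K27me3, 0 for H3K9me3 and 1 for WCE over the whole cluster, so the H3K27me3 there is seen only through reads with 2 places.

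**Figure D4:**
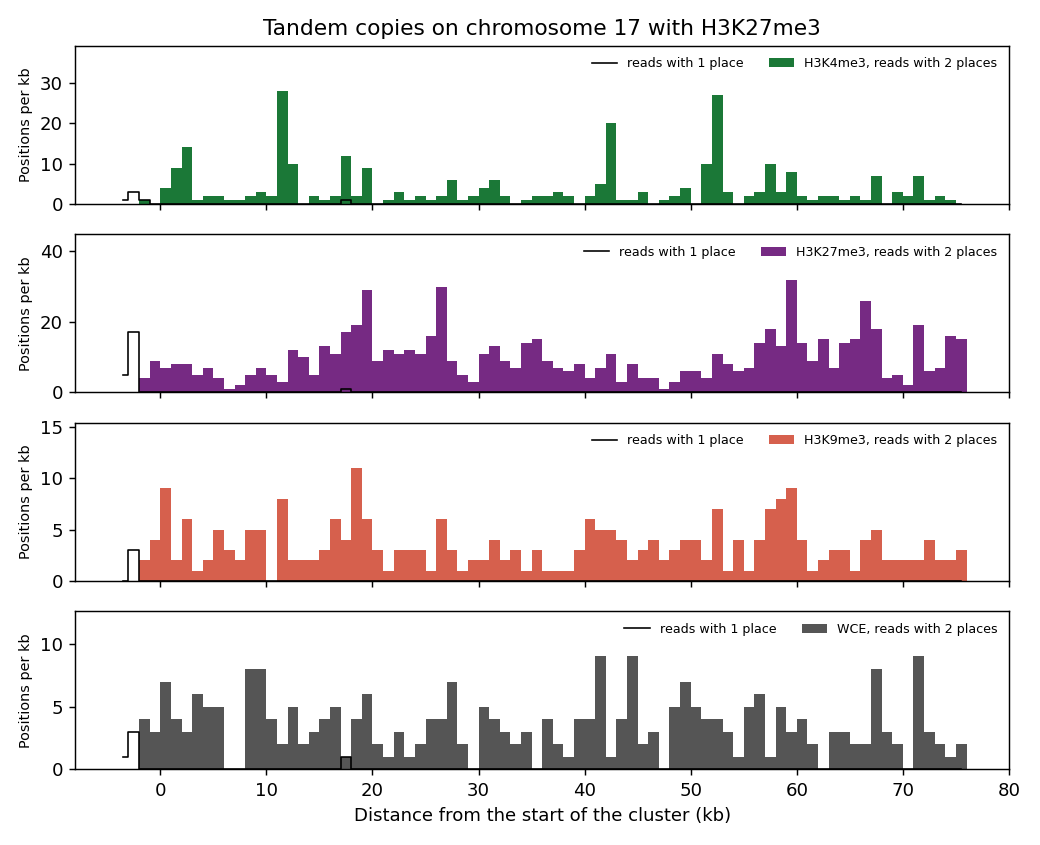
Positions per kb (y axis, a scale of its own for each library) along the second tandem pair on chromosome 17 (x axis, kb from the start of the cluster), drawn as in the plot of the first pair. H3K27me3 is raised over long stretches in both copies, and the black line for reads with 1 place stays near 0 inside the cluster.

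On chromosome 3 the cluster from 96428001 to 96480000 held 92 H3K4me3, 310 H3K27me3, 80 H3K9me3 and 95 WCE positions, and an H3K27me3 ratio of 3.23 (2.56 to 4.11). Its tile from 96468001 had 16 H3K4me3, 58 H3K27me3, 12 H3K9me3 and 10 WCE positions, the highest called H3K27me3 ratio (5.75, 2.91 to 12.6), and no read with 1 place in any library. The tiles from 96432001 and from 96472001 were among the 3 with the largest excess of H3K27me3 over H3K9me3, with 54 and 66 H3K27me3 positions and 7 and 10 H3K9me3 positions. The third was on chromosome 8 from 74968001 to 74972000, with 39 H3K27me3 positions and 5 H3K9me3 positions (exact binomial test, adjusted p = 0.0126).

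H3K27me3 also stood above H3K4me3 in runs of tiles where it passed the test against WCE in few. On chromosome 17 the cluster from 6264001 to 6312000 held 160 H3K4me3, 651 H3K27me3, 272 H3K9me3 and 381 WCE positions. H3K27me3 was called above H3K4me3 in 9 of its 11 tiles. The cluster from 34992001 to 35072000 held 80 H3K4me3, 446 H3K27me3, 145 H3K9me3 and 206 WCE positions, and H3K27me3 was called above H3K4me3 in 7 of its 13 tiles. On chromosome 15 the cluster from 77228001 to 77388000 held 192 H3K4me3, 457 H3K27me3, 188 H3K9me3 and 254 WCE positions, an H3K27me3 ratio of 1.78 (1.53 to 2.09). H3K27me3 was called above H3K4me3 in 4 of the 17 tiles there, and 1 tile was called above WCE for H3K4me3. The H3K4me3 ratio was 0.478 (0.395 to 0.577) and 0.442 (0.337 to 0.575) in the 2 chromosome 17 clusters. On chromosome 15 it was 0.861 (0.710 to 1.04), an interval that includes 1.

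The single tile with the second highest H3K27me3 ratio lay on chromosome 17 from 35740001 to 35744000, with 13 H3K4me3, 75 H3K27me3, 20 H3K9me3 and 13 WCE positions (5.72, 3.15 to 11.2). The largest excess of H3K27me3 over H3K4me3 was on chromosome 19 from 41480001 to 41484000, with 1 H3K4me3, 32 H3K27me3, 9 H3K9me3 and 18 WCE positions (exact binomial test, adjusted p = 1.61e-05). The next 2 were single tiles with 1 H3K4me3 and 18 H3K27me3 positions each, on chromosome 7 from 141784001 and on chromosome 17 from 7896001 (exact binomial test, adjusted p = 0.0398 for both).

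Other large clusters had few or no called tiles. The cluster on chromosome 10 from 21828001 to 21948000 held 129 H3K4me3, 237 H3K27me3, 183 H3K9me3 and 232 WCE positions in 15 members, and no tile was called against WCE. Of these members, 12 had a direct copy between 22046218 and 22136221, 2 had a copy on chromosome 13 and 1 was unresolved. Its H3K4me3 ratio was 0.633 (0.506 to 0.789), and the intervals of the other marks included 1. The tandem pair on chromosome 12 from 82920001 to 82976000 held 150 H3K4me3, 250 H3K27me3, 174 H3K9me3 and 265 WCE positions in 13 members, again with no tile called against WCE. There the ratio was 0.645 (0.524 to 0.790) for H3K4me3 and 0.787 (0.647 to 0.957) for H3K9me3, and the H3K27me3 interval included 1. The cluster on chromosome 17 from 13252001 to 13352000 held 197 H3K4me3, 376 H3K27me3, 355 H3K9me3 and 271 WCE positions in 14 members, with 1 tile called above WCE, for H3K9me3. Its ratio was 0.828 (0.685 to 0.998) for H3K4me3 and 1.37 (1.17 to 1.61) for H3K27me3. Of the 10 largest clusters it was the 1 whose H3K9me3 interval lay above 1, at 1.57 (1.34 to 1.85). Much of that excess lay in the adjoining tiles from 13340001 and 13344001, with 57 and 88 H3K9me3 positions and 25 and 30 WCE positions. The median tile ratio of H3K9me3 in the cluster was 1.21.

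H3K9me3 stood out in few members. The 7 called above WCE held 585 H3K9me3 and 201 WCE positions, and 210 H3K9me3 and 86 WCE reads with 1 place. On chromosome 17 the direct pair from 34576001 and from 34564001 had 82 and 96 H3K9me3 positions and 14 and 18 WCE positions. H3K4me3 had 55 and 94 positions there and H3K27me3 had 31 and 42, so all 3 marks exceeded WCE in the pair. The H3K27me3 ratios were 2.19 (1.13 to 4.46) and 2.31 (1.30 to 4.27), and only H3K4me3 and H3K9me3 were called. Reads with 1 place showed H3K4me3 but not H3K9me3 in the second tile, with 41 for H3K4me3, 2 for H3K9me3 and 11 for WCE.

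The other 3 tiles with the highest H3K9me3 ratios were unresolved. On chromosome 6 the tile from 29696001 to 29700000 had 21 H3K4me3, 20 H3K27me3, 54 H3K9me3 and 14 WCE positions, and 28, 23, 60 and 21 reads with 1 place (exact binomial test, adjusted p = 6.02e-05 for H3K9me3 in those reads). The chromosome 17 tile from 13344001 to 13348000 had 44 H3K4me3, 52 H3K27me3, 88 H3K9me3 and 30 WCE positions, and 62 H3K9me3 and 24 WCE reads with 1 place (exact binomial test, adjusted p = 0.000169). On chromosome 18 the tile from 82352001 to 82356000 had 35 H3K4me3, 46 H3K27me3, 72 H3K9me3 and 31 WCE positions, and 63 H3K9me3 and 20 WCE reads with 1 place (exact binomial test, adjusted p = 5.16e-06). In these 3 tiles both kinds of read gave H3K9me3 above WCE.

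Tiles named for H3K9me3 above another mark lay in part at the start of chromosome 9. There, the tile from 3004001 to 3008000 had 19 H3K4me3, 26 H3K27me3, 70 H3K9me3 and 44 WCE positions, and H3K9me3 was called above both marks (exact binomial test, adjusted p = 4.25e-06 for H3K4me3 and 0.000629 for H3K27me3). The tile from 3016001 to 3020000 had 26 H3K4me3, 32 H3K27me3, 69 H3K9me3 and 56 WCE positions. The tile from 3024001 to 3028000, named for its low H3K4me3 and H3K27me3 ratios, had 33 H3K4me3, 32 H3K27me3, 82 H3K9me3 and 90 WCE positions. Its reads with 1 place, which had no part in the choice, numbered 79, 70, 143 and 129 in the same order. The chromosome 8 tile from 75024001 to 75028000, with a direct copy, had 2 H3K4me3, 15 H3K27me3, 19 H3K9me3 and 12 WCE positions.

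The remaining tiles named for a low H3K4me3 ratio were single ones. On chromosome 16 the unresolved tile from 18444001 to 18448000 had 25 H3K4me3, 52 H3K27me3, 44 H3K9me3 and 70 WCE positions. On chromosome 4 the tile from 78244001 to 78248000 had 24 H3K4me3, 62 H3K27me3, 49 H3K9me3 and 65 WCE positions.

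The densest member that is not mitochondrial was on chromosome 17 from 39452001 to 39456000. It had 208 H3K4me3, 469 H3K27me3, 363 H3K9me3 and 453 WCE positions, and 1145, 2699, 2189 and 2021 reads with 1 place. In those reads, by the exact binomial test, H3K4me3 was below WCE (0.547, adjusted p = 1.33e-58), and H3K27me3 (1.36, adjusted p = 1.64e-20) and H3K9me3 (1.53, adjusted p = 5.41e-38) were above it, both short of the fold of 2 set for a call. With 51.8% of its positions matched to chromosome 6, it was close to the limit for an assigned second place. The unresolved tile on chromosome 2 from 98464001 to 98468000 had 305 H3K4me3, 320 H3K27me3, 394 H3K9me3 and 450 WCE positions, and 224, 204, 319 and 409 reads with 1 place.

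Agreement between the 2 kinds of read was closest for H3K4me3. Over the 272 members with at least 10 H3K4me3 and WCE reads with 1 place, the log2 ratios of the 2 kinds had Pearson r = 0.725 and Spearman rho = 0.707, and 223 (82.0%) had the same sign. For H3K27me3 over 292 members, r was 0.329 and rho 0.432, with 65.1% of the same sign. For H3K9me3 over 251 members, r was 0.332 and rho 0.424, with 64.1% of the same sign. With at least 20 such reads, r was 0.747 for H3K4me3 (164 members), 0.486 for H3K27me3 (129) and 0.511 for H3K9me3 (109). Among members with an assigned second place at that depth, r was 0.715 (97 members), 0.450 (66) and 0.253 (46) in the same order. Of those 46, 56.5% had the same sign for H3K9me3. These values describe tiles and not replicates. The tiles share 2 libraries, neighbouring and paired tiles share reads, and the ratios are noisy where counts are low, so no p is given.

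**Figure D5:**
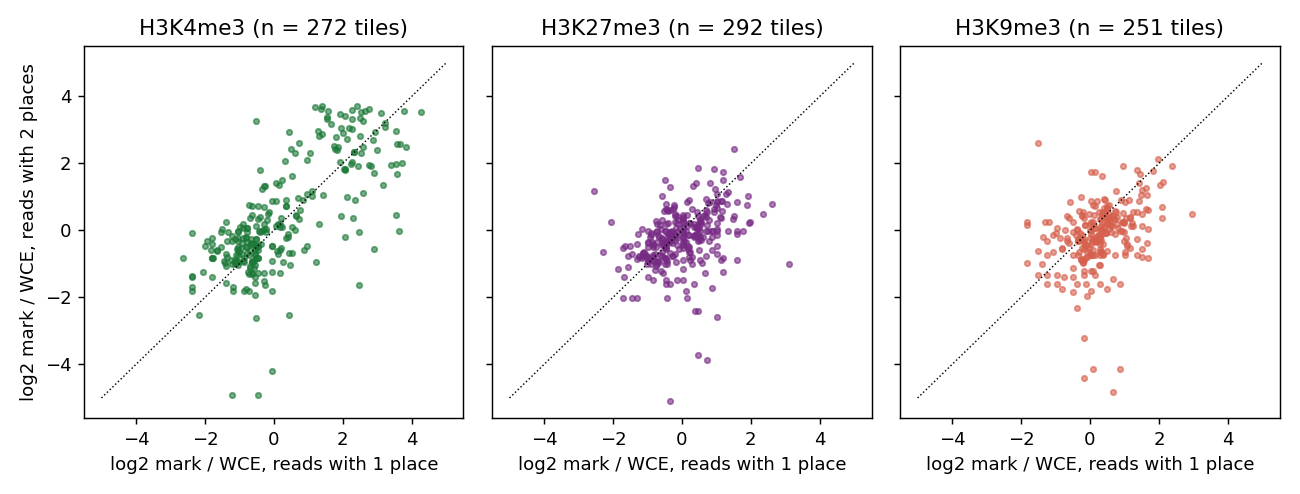
For each mark, the log2 ratio to WCE from reads with 2 places (y axis) against that from reads with 1 place (x axis), 1 read added to all counts, for members with at least 10 reads with 1 place in the mark and WCE; each point is 1 tile and the dotted line marks equal values. H3K4me3 (272 tiles) stretches along the line up to log2 ratios near 4, while H3K27me3 (292) and H3K9me3 (251) form compact clouds around 0.

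Calls from the 2 kinds of read overlapped in part. Of the members, 889 could be tested for H3K4me3 with reads with 1 place, and 56 were called above WCE, where 2.35% of all tested tiles were called. A further 14 were called below WCE (0.287%), of which 12 were unresolved. The 46 tiles called higher by both kinds of read were 37.1% of the 124 called from reads with 2 places and 82.1% of the 56 called from reads with 1 place. Of the 124, 14 had no H3K4me3 or WCE read with 1 place and 48 had under 10, while 46 of the 76 with 10 or more were called by both. Summed over the 124 tiles, the reads with 1 place numbered 3286 for H3K4me3 and 728 for WCE, a ratio of 4.35 (4.02 to 4.73).

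For H3K27me3, 2 members were called higher (0.633% of tested tiles) and 3 lower (0.0254%) from reads with 1 place, and none was called higher by both kinds. Of the 20 members called higher from reads with 2 places, 18 had under 10 H3K27me3 and WCE reads with 1 place, 9 of them none. Their summed reads with 1 place, 66 for H3K27me3 and 25 for WCE, still gave a ratio of 2.68 (1.67 to 4.43). For H3K9me3, 7 members were called higher (0.0173%) and none lower (0.00018%) from reads with 1 place, all 7 unresolved, and 3 were called higher by both kinds.

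Marks were also compared with each other in reads with 1 place, where neither library chose the members. H3K4me3 was called above H3K27me3 in 68 members (2.7% of all tested tiles) and below it in 16 (3.16%). It was called above H3K9me3 in 54 members (2.41%) and below it in 47 (0.599%), and 38 of these 47 were unresolved. H3K27me3 was called below H3K9me3 in 20 members (0.0538%), 19 of them unresolved, and above it in 0 (0.198%). The tiles called for H3K9me3 above another mark in these reads were thus mostly unresolved. Depth differed between the kinds, however. The median of reads with 1 place over the 4 libraries was 24 in unresolved members and 17 with a copy on another chromosome. It was 4 in direct and 3 in inverted copies, where few tiles could be called, so the counts do not compare the kinds.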

How the data were processed

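ChIP-seq read positions of 3 histone marks and WCE were analysed, with 1 library a group. Per the file headers, the authors aligned reads to mm8 with Bowtie (options e 70, k 2, m 2, n 2, l 36), which the submitters' processing notes also name, so reads with over 2 places were dropped. The deposited values are of no count or score unit: each line is a signed coordinate in a list of reads with 1 or with 2 places, and amplified copies remain in it. Collapsed counts per 4 kb tile, ratios, exact intervals, exact binomial tests and second places were computed with scipy 1.17.1 and numpy 2.4.6 in Python 3.11.15 (plots in matplotlib 3.10.9), and the calling and matching steps were tested on simulated data. A reverse-strand coordinate was taken as listed, and its end of the read is not given in the sources used here. A ratio against a library at 0 used a floor of 3 counts, which no printed ratio needed.

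Named regions are the 10 clusters with most members, the 5 members with most WCE positions, the 5 highest and 3 lowest called tiles of each mark with at least 20 mark positions (log2 ratio, 1 added; none was low for H3K9me3), and the 3 largest called contrasts of each pair of marks in both directions. The other clusters named, those with most H3K4me3 or H3K27me3 calls, were chosen after their values were seen. The members, tests and alternatives were chosen with earlier results of these data known. Alternatives changed tile size, minimum, repeats, scaling, strand, thresholds and tile start. No table of genes on mm8 was used here, so regions have positions only.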

Additional observations from a re-analysis of the deposited data

How the results depend on the processing

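Of 116 alternative values, 67 stayed within counting error or, for counts of calls, within 1.5 times of the total, 46 moved and 3 lay on the other side of 1. The total of calls does not show their direction, and in 8 cases the majority changed direction. The H3K27me3 ratio of 0.931 became 1.04 on the reverse strand of tiles chosen on the forward strand and 1.02 without mitochondrial tiles. The H3K9me3 ratio of 0.865 became 1.02 when scaled by reads with 1 place. The H3K4me3 ratio of 1.26 stayed above 1, at 1.19 with all repeats, 1.21 in 2 kb tiles, 1.12 and 1.23 with minimums of 5 and 20 WCE positions, 1.07 scaled by reads with 1 place, 1.40 on the other strand, 1.39 without mitochondrial tiles, 1.36 without unresolved tiles and 1.12 with 1 tile of each pair. H3K27me3 was 0.865 with all repeats, 0.853 in 2 kb tiles, 0.974 in 8 kb tiles, 0.893 and 0.808 with minimums of 5 and 20, 0.954 scaled by reads with 1 place, 0.970 without unresolved tiles and 0.850 with 1 tile of each pair. H3K9me3 was 0.908, 0.789 and 0.898 in the first 3 of these, 0.812 with a minimum of 5, 0.970 on the other strand, 0.951 and 0.811 without mitochondrial and without unresolved tiles and 0.839 with 1 tile of each pair. Members numbered 3923 in 2 kb tiles, 441 in 8 kb tiles, 5066 and 276 with minimums of 5 and 20, and 769 with 1 tile of each pair, and clusters 2333 and 142 with those minimums instead of 549. With 1 tile of each pair, calls in either direction fell to 98 (of 153) for H3K4me3 and 21 (of 32) for H3K27me3 against WCE, the last with 9 higher and 12 lower (of 20 and 12), and to 124 (of 210), 86 (of 135) and 17 (of 27, 8 higher and 9 lower in place of 16 and 11) for H3K4me3 against H3K27me3, H3K4me3 against H3K9me3 and H3K27me3 against H3K9me3. Without chromosome 17 there were 18 H3K27me3 calls (6 higher, 12 lower), 132 for H3K4me3 against H3K27me3 and 16 for H3K27me3 against H3K9me3 (7 higher, 9 lower), and without mitochondrial tiles 8 H3K9me3 calls (7 higher and 1 lower in place of 7 and 11). The H3K27me3 against H3K9me3 calls became 49 with all repeats (23 higher, 26 lower) and 17 with tiles moved by 2 kb. Scaled by reads with 1 place, H3K4me3 against H3K27me3 had 121 higher and 123 lower (133 and 77 before), and H3K27me3 against H3K9me3 had 8 and 17. From reads with 1 place, the 5 H3K27me3 calls became 13 with all repeats, 3 at an adjusted p under 0.01 and 11 with no fold minimum. Removal of tile kinds, of 1 tile a pair, of the densest chromosome 17 tile and of chromosome 17 was chosen after seeing the data. Fewer tiles enter those counts by construction, and for the other moves the cause was not tested. No paired analysis was possible because each group has 1 library. Sparse reads with 1 place limit the comparison of both kinds of read in most members.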
